A study of Mus musculus with 8 samples.

Results

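Hyaluronan is a long sugar polymer of the space around cells, and the genes described here are those for its synthesis (Has1, Has2, Has3), its breakdown (Hyal1, Hyal2) and its binding (Cd44, Tnfaip6, Vcan) in peritoneal macrophages with and without FURIN. They are 8 of the 20887 genes that could be named on the array, and were chosen by name. The ratio of Has1 between the genotypes, which was known to differ after 4 h of LPS, had entered that choice, so its values are given below as a description, and nothing is read from a count that includes it. The 8 genes have 15 probes in all, 4 for Cd44, 3 each for Tnfaip6 and Vcan and 1 for each of the other 5 genes, and the brightest probe over all arrays stands for a gene. At this choice the probe taken for Cd44 had a mean log2 intensity of 12.43 against 11.48 for the next, that for Tnfaip6 7.21 against 6.51 and that for Vcan 8.31 against 8.23.

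The cells came from C57BL/6 mice of 2 genotypes, LysMCre-fur(fl/fl) (labelled FURIN KO, here KO) and WT littermates. They were washed out of the peritoneal cavity, plated for 24 h, freed of nonadherent cells, and then left untreated or given LPS, a component of the bacterial outer membrane, at 1 μg/ml for 1, 4 or 24 h. The 24 h of plating differ from the methods of the paper, which give 1 h of incubation before stimulation. Cre recombinase is driven from the LysM (Lyz2) locus, which is active mainly in myeloid cells. Each of 8 Agilent 2-colour arrays held KO and WT RNA of 1 time in different dyes, and every time had 2 arrays. The labels call the 2 arrays of a time point biological replicates, and whether the cells of several animals were pooled is not stated in the sources used here, so the p-values measure the spread between these samples only. KO was in Cy5 on replicate 1 and in Cy3 on replicate 2.

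Hyaluronan is made at the plasma membrane by 3 related synthases from UDP-glucuronate and UDP-N-acetylglucosamine, and is pushed out of the cell as it grows. HYAL2 at the cell surface and HYAL1 in lysosomes cut it into pieces. CD44 is the main receptor for it on leukocytes, TSG-6 (the product of Tnfaip6) transfers the heavy chains of a serum inhibitor onto it, and versican (the product of Vcan) is a large proteoglycan whose head binds it. In inflamed tissue, hyaluronan and these partners form a matrix that holds leukocytes.

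Promoter sequences were listed in RefSeq (GRCm38.p6) for 6 of the 8 genes, Has1, Hyal1, Hyal2, Cd44, Tnfaip6 and Vcan. The 250 bases before the annotated start are shown for the pair with the largest rise in LPS, Has1 and Tnfaip6, and for Hyal2, which was lower at 1 h. They run 5′ to 3′ on the strand of the gene, and capitals mark a match to one of the 4 motifs searched on both strands, which do not overlap here. The motifs were the cyclic AMP response element TGACGTCA, the AP-1 motif TGANTCA, the TATA box TATAAA and the NF-κB consensus.
Has1, chr17:17855189-17855438, minus strand: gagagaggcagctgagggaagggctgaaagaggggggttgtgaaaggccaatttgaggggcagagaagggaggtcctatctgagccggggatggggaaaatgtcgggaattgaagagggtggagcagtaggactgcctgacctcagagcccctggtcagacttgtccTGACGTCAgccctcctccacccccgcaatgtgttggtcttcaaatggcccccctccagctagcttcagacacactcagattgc
Tnfaip6, chr2:52037863-52038112, plus strand: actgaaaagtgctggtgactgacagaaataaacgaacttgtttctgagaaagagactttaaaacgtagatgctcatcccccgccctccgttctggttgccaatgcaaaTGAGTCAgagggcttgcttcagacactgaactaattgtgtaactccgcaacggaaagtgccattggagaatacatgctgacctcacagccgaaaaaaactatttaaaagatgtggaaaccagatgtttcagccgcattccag
Hyal2, chr9:107568913-107569162, plus strand: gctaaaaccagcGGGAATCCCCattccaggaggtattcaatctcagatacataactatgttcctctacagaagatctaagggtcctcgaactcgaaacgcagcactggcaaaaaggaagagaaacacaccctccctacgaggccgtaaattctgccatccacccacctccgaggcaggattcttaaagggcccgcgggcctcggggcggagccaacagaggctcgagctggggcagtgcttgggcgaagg
The Has1 window held a cyclic AMP response element 83 to 76 bases before the start, a motif found in 1.55% of the 32851 promoter windows of this length. The Tnfaip6 window held an AP-1 motif 142 to 136 bases before the start, found in 6.75% of the windows. The Hyal2 window held an NF-κB match 238 to 229 bases before the start, found in 3.90% of the windows. No window of the 6 held the TATA box in these letters (12.4% of all windows do), and the windows of Hyal1, Cd44 and Vcan held none of the 4 motifs. A match is a run of letters and not a measured binding site.

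Between 43.8% and 51.3% of the gene spots of a channel were well above background. In the labelled cell type, 8 of the 9 macrophage markers were on the array and well above background in all 16 channels, with a summed log2 intensity of 16.9 to 19.2. Against untreated, 6 of the 8 were lower in WT and 5 in KO at 4 h (median log2 difference -0.88 and -0.99), where 34.8% and 36% of everything tested passed in either direction. At 24 h 7 of the 8 were lower in each genotype (-2.06 and -2.35), where 30.4% and 28.7% passed. Their part in the falls described below was not tested. B cell markers had a summed log2 intensity of 14.7 to 16.7. The sums were 12.6 to 14.4 for T and NK cell markers, 9.42 to 12.7 for dendritic cell markers and 10.8 to 14.5 for mast cell markers. At 24 h 5 of 6 mast cell markers were lower than untreated in each genotype (median -1.69 in WT and -1.39 in KO). So were 3 of 6 T and NK cell markers in WT and 4 in KO (-0.70 and -0.81), with 0 higher in either list. From 4 to 24 h, 6 of 6 mast cell markers fell in both genotypes (-2.02 and -1.92), where 29.7% and 30.7% of everything tested passed. The part of these cells in the falls described below was not tested. Neutrophil markers lay between 11.3 and 11.8 until 4 h and between 14.49 and 15.99 at 24 h, and mesothelial and fibroblast markers between 11.4 and 12.2 until 4 h and between 14.6 and 14.7 at 24 h. At 24 h, where 30.4% of everything tested passed in WT and 28.7% in KO, 2 of 7 neutrophil markers were higher in each genotype (median 0.16 in WT and -0.015 in KO), and of the 17 others 3 were higher and 2 lower in WT and 4 higher and 2 lower in KO (median -0.0038 and -0.099). Of the 7 neutrophil markers, 2 were well above background in each channel, or 3 in WT replicate 1 at 24 h, so their medians are mostly of background signal. In bulk RNA, fewer cells of a type and less RNA per cell cannot be told apart. Tnf and Il6 rose with LPS in both genotypes, Il6 from 7.34 to 9.22 untreated to 16.5 to 17.7 at every LPS time. The log2 KO/WT ratio of Furin, the deleted gene, was -0.72 untreated, -0.56 at 1 h and -0.64 at 24 h, which did not pass (adjusted p = 0.161, 0.462 and 0.184) except with the replicate number in the fit (0.0123, 0.0477 and 0.0227). Its mean over the 4 times was -0.44, which passed in limma (adjusted p = 0.0220). Furin was not lower in the RNA labelled KO at 4 h, when the ratios were 0.00023 and 0.33, and Lyz2 was lower on all 8 arrays (-1.04 and -1.13 at 4 h). KO at 4 h therefore means the RNA labelled KO.

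Of the 3 synthases, Has1 was the one detected. Has1 encodes an enzyme that makes hyaluronan and is a known responder to inflammatory signals. Its log2 intensity in WT was 6.27 and 6.36 untreated (replicates 1 and 2), 7.36 and 7.08 at 1 h, 10.95 and 9.95 at 4 h, then 7.49 and 7.35 at 24 h. In KO it was 6.43 and 6.23, then 7.81 and 7.55, 12.44 and 11.78, and 7.99 and 7.69. In both genotypes the order of the levels was therefore untreated, 1 h, 24 h and 4 h, the values at 1 h and 24 h overlapped, and none of the untreated channels was well above background. In WT, Has1 was at least 1.87-fold higher at 1 h than untreated (adjusted p = 0.0474), at least 16.8-fold at 4 h (adjusted p = 2.08e-08) and at least 2.12-fold at 24 h (adjusted p = 0.00431). In KO it was at least 2.55-fold higher at 1 h (adjusted p = 0.00473), at least 54.8-fold at 4 h (adjusted p = 9.34e-10) and at least 2.85-fold at 24 h (adjusted p = 0.000427). Each bound sets the untreated side at the lowest signal that counts as well above background on those arrays, or at the probe's own signal where that is higher. It was taken after Aquantile normalization, and the fold of the quantile-normalized means is given in its place where that was lower. From 4 to 24 h it fell by 3.03 on the log2 scale in WT (standard error 0.26, adjusted p = 8.38e-07) and by 4.27 in KO (standard error 0.26, adjusted p = 4.68e-08). The rise at 1 h in WT lost its call when any 1 of the untreated, 1 h or 24 h arrays was left out (0.76 to 1.04 on the log2 scale), with the mean of all probes (adjusted p = 0.0558) and with one genotype's channels alone (adjusted p = 0.100), and that in KO without replicate 2 of the untreated (1.25) or replicate 1 of the 1 h arrays (1.22). Under settings that keep all arrays the fitted log2 difference at 1 h went up to 3.58 in WT and 4.43 in KO. Its size, which rests on untreated signals not well above background, thus depends on the processing.

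**Figure D1:**
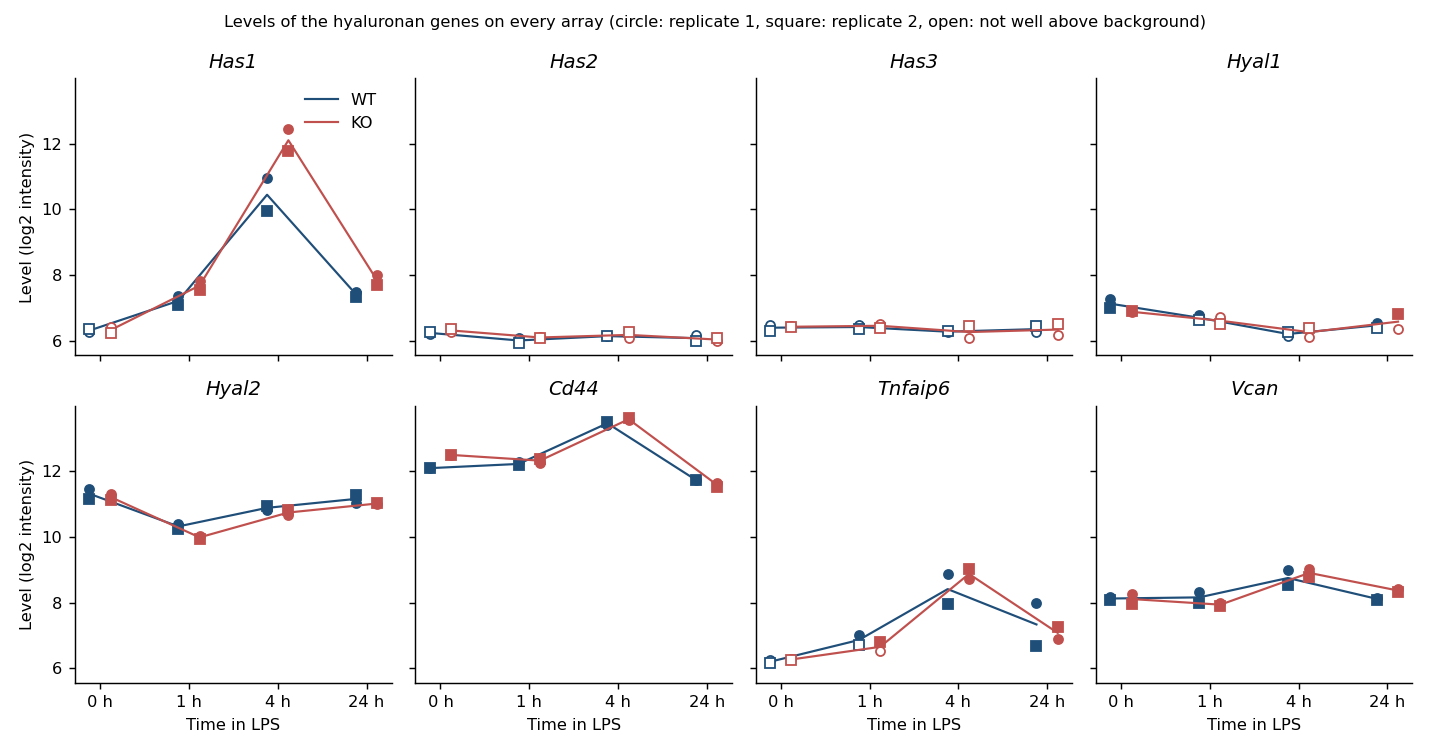
Levels of the 8 genes on every array: log2 intensity of the brightest probe (vertical) at each time in LPS (horizontal), WT blue and KO red, lines through the mean of 2 arrays, open symbols where the spot was not well above background. Has1 rose from 6.27 and 6.36 to 10.95 and 9.95 in WT and to 12.44 and 11.78 in KO at 4 h, while Has2 and Has3 have open symbols at every time.

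The KO/WT ratio of Has1 within an array, the value that entered the choice of genes, was 1.49 and 1.83 at 4 h on the log2 scale (mean 1.66, standard error 0.12), or 2.80-fold and 3.56-fold. This was the third highest of 20846 named genes. The ratios were 0.16 and -0.13 untreated, 0.46 and 0.48 at 1 h, and 0.50 and 0.34 at 24 h, so KO was higher on all 6 LPS arrays and the untreated arrays, where neither genotype was well above background, lay on either side of 0. The mean over the 4 times was 0.64 (standard error 0.058). Furin was not lower in KO at 4 h, as given above, and its part in this ratio was not tested. Mesothelial cells and fibroblasts also make hyaluronan. Of 17 markers of these cells, none passed the threshold for KO/WT in limma at 4 h, where 0.00812% of everything tested did. So few passed that nothing is read from this count. The median ratio of the 17 was -0.064. Against untreated, 3 rose and 1 fell at 4 h in WT, and 1 rose and 2 fell in KO, where 34.8% and 36% of everything tested passed. Their summed log2 intensity at 4 h was 11.95 and 11.98 in WT and 12.17 and 12.04 in KO. In the 4 h channels 7 to 10 of the 17 were well above background. Those well above background in all 16 channels were Krt18, Col1a2, Dcn, Thy1 and Pdpn, and their mean KO/WT ratios at 4 h were 0.11, -0.61, -0.24, 0.06 and 0.49. Pdpn had the highest of these ratios, with levels of 10.74 and 10.44 in WT and 11.20 and 10.97 in KO at 4 h (adjusted p = 0.566). Lrrn4 and Pdgfra, markers of mesothelium and fibroblasts, were well above background in no channel, and Upk3b, another mesothelial marker, was in 1 of 16. Msln, which marks mesothelium, lay between 6.33 and 7.49 throughout, and was well above background in 11 of 16 channels. The part of these cells in the Has1 ratio was not tested.

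Has2 and Has3, the other synthases, were well above background in none of the 16 channels. Has2 lay between 5.94 and 6.37 and Has3 between 6.07 and 6.53 on the log2 scale, and no fold is given for either.

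Hyal2 encodes a hyaluronidase anchored at the cell surface, and it fell within 1 h of LPS. Its levels in WT were 11.47 and 11.15 untreated, 10.40 and 10.23 at 1 h, 10.82 and 10.94 at 4 h, then 11.04 and 11.26 at 24 h. In KO they were 11.29 and 11.12, then 10.02 and 9.95, 10.65 and 10.83, and 10.99 and 11.03. Untreated and 1 h arrays did not overlap in either genotype, and the 24 h levels lay between those at 4 h and the highest untreated level. The fall at 1 h was 1.99-fold in WT (log2 difference -0.99, standard error 0.12, adjusted p = 0.000124) and 2.34-fold in KO (-1.22, standard error 0.12, adjusted p = 2.28e-05). At 4 h Hyal2 was still 0.43 below untreated in WT (log2 difference -0.43, adjusted p = 0.0139) and 0.47 below in KO (-0.47, adjusted p = 0.00780), having risen by 0.57 from 1 h in WT (adjusted p = 0.00259) and by 0.76 in KO (adjusted p = 0.000245), of which the former lost its call with normalization within arrays only (0.29). Both of the differences at 4 h against untreated lost their call without replicate 1 of the untreated arrays (-0.27 in WT and -0.38 in KO) or replicate 1 of the 4 h arrays (-0.37 and -0.38). Under settings that keep all arrays they reached -0.78 in WT and -0.83 in KO. At 24 h the difference was -0.16 in WT (95% confidence interval -0.42 to 0.11) and -0.19 in KO (-0.46 to 0.07), and neither passed.

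Between the genotypes, Hyal2 was slightly lower in KO on all 8 arrays, with log2 ratios from -0.38 to -0.03. The 1 h arrays had the lowest ratios, -0.38 and -0.29. The mean over the 4 times was -0.18 (standard error 0.047, adjusted p = 0.164), or 1.13-fold lower, which passed with the replicate number as a term of the fit (adjusted p = 0.0399).

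Hyal1, the lysosomal hyaluronidase, was near the limit of detection and fell below it in LPS. It was well above background in all 4 untreated channels (7.28 and 6.99 in WT, 6.87 and 6.90 in KO), in none of the 4 channels at 4 h (6.12 to 6.40), and in 1 WT and 1 KO channel at 24 h (6.56 in WT and 6.81 in KO). The 1 h levels lay between these, at 6.78 and 6.63 in WT and 6.72 and 6.51 in KO. At 4 h it was at least 1.90-fold lower than untreated in WT (adjusted p = 0.000297) and at least 1.53-fold lower in KO (adjusted p = 0.00602). The call in KO was lost without replicate 1 of the 4 h arrays (-0.48 on the log2 scale). At 24 h the difference passed in WT (-0.66, adjusted p = 0.00496, lost without replicate 1 of the untreated arrays at -0.51) and was -0.30 in KO (adjusted p = 0.200). The difference in this response between the genotypes was 0.36 (95% confidence interval -0.12 to 0.83) and did not pass. With 1 of the 2 channels of each genotype not well above background at 24 h, these differences are not measured folds. Its KO/WT ratios lay between -0.41 and 0.42 and took both signs.

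Cd44, the hyaluronan receptor, peaked at 4 h by its main probe. In WT its levels were 12.08 and 12.10 untreated, 12.27 and 12.17 at 1 h, 13.42 and 13.50 at 4 h, then 11.73 and 11.72 at 24 h. In KO they were 12.49 and 12.50, then 12.25 and 12.38, 13.55 and 13.61, and 11.64 and 11.50. The 4 h arrays lay above all others in both genotypes and the 24 h arrays below all others. Against untreated, Cd44 was 2.58-fold higher at 4 h in WT (log2 difference 1.37, standard error 0.091, adjusted p = 3.57e-08) and 2.12-fold higher in KO (1.09, standard error 0.091, adjusted p = 3.40e-07). From 4 to 24 h it fell by 1.73 in WT (adjusted p = 1.27e-08) and by 2.01 in KO (adjusted p = 5.79e-09).

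The direction of Cd44 at 24 h against untreated depended on the probe. The brightest probe was lower, by -0.36 in WT (adjusted p = 0.00658, lost without replicate 2 of the untreated arrays, where p became 0.0520, and with normalization within arrays only at -0.11) and by -0.92 in KO (adjusted p = 2.86e-06). With the mean of all 4 probes in place of the brightest, the difference was 0.19 in WT (adjusted p = 0.247) and -0.07 in KO (adjusted p = 0.741), and neither passed. The second probe, with 10.58 and 10.65 untreated and 11.68 and 11.60 at 24 h in WT, was higher, by 1.03 in WT (adjusted p = 2.68e-06) and by 0.56 in KO (adjusted p = 0.000746). Both probes were well above background in all 16 channels. The third probe, well above background in 14 channels, differed by 0.04 in WT and 0.21 in KO and did not pass, and the dimmest was well above background in no untreated or 24 h channel. At 4 h the 3 brighter probes were higher in both genotypes, by 1.07 to 2.01 in WT and by 1.09 to 1.88 in KO. The dimmest was well above background in 3 of the 4 channels at 4 h, and no fold is given for it. The transcripts that the probes detect were not compared here.

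Between the genotypes, Cd44 was higher in untreated KO cells, with the same ratio of 0.40 on both arrays (1.32-fold, standard error 0.094, adjusted p = 0.309), which did not pass. The mean of its second probe was 0.26, the third probe had -0.18 and -0.07, and the dimmest was not well above background there. The ratios were -0.01 and 0.21 at 1 h, 0.14 and 0.11 at 4 h, then -0.09 and -0.22 at 24 h. The response at 24 h was lower in KO by 0.56 (95% confidence interval -0.86 to -0.26, adjusted p = 0.725), which did not pass.

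Tnfaip6 encodes TSG-6, which is secreted by inflamed cells, and its levels rose with LPS. In WT they were 6.25 and 6.14 untreated, 7.00 and 6.71 at 1 h, 8.86 and 7.95 at 4 h, then 7.98 and 6.68 at 24 h. In KO they were 6.28 and 6.25, then 6.51 and 6.79, 8.71 and 9.03, and 6.89 and 7.26. No untreated channel was well above background, 1 channel of each genotype was at 1 h, and all were at 4 and 24 h. At 4 h Tnfaip6 was at least 4.63-fold higher than untreated in WT (adjusted p = 0.000169) and at least 6.01-fold higher in KO (adjusted p = 3.86e-05). At 24 h it was at least 2.20-fold higher in WT (adjusted p = 0.0251), and at least 1.74-fold higher in KO, which did not pass (adjusted p = 0.116) except with the replicate number in the fit (adjusted p = 0.0115). The 24 h call in WT was lost without either untreated array (1.19 without replicate 1 and 1.08 without replicate 2, on the log2 scale) or without replicate 1 of the 24 h arrays (0.48), with the mean of all probes (0.54) and with one genotype's channels alone (adjusted p = 0.0685). The fall from 4 to 24 h was 1.80 in KO (log2 difference -1.80, adjusted p = 0.00124) and 1.08 in WT (-1.08, adjusted p = 0.0340, lost without either untreated array, replicate 1 of the 4 h arrays at -0.62 or replicate 2 of the 24 h arrays at -0.42, with normalization within arrays only at -0.72, and with one genotype's channels alone, where p became 0.0842). The other 2 probes of Tnfaip6 were well above background in 5 and 1 of the 16 channels, and no fold is given for them.

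The 2 replicates of Tnfaip6 disagreed between the genotypes. The KO/WT ratios were 0.03 and 0.11 untreated (not well above background in either genotype), -0.49 and 0.08 at 1 h, -0.15 and 1.07 at 4 h, then -1.10 and 0.58 at 24 h. On each 1 h array 1 of the 2 channels was not well above background, so the ratios at 1 h are not measured folds. KO was lower on replicate 1 and higher on replicate 2 at each LPS time. Replicate number is also dye orientation (KO in Cy5 on replicate 1 and in Cy3 on replicate 2). Dye and replicate therefore cannot be told apart in this split or in those below. The interval of the ratio at 4 h ran from -0.40 to 1.32. Other RNAs also differed between the replicates, and their part in the Tnfaip6 ratio was not tested. The median KO/WT ratio of 5 markers of steroid-producing cells was -0.61 to -1.35 on the 4 arrays of replicate 1 and 0.33 to 0.59 on those of replicate 2, and their summed log2 level was 12.80, 12.84, 12.65 and 12.04 in WT replicate 1 against 11.61, 11.85, 11.67 and 10.98 in WT replicate 2 at 0, 1, 4 and 24 h. In KO it was 12.19, 11.61, 11.70 and 11.38 in replicate 1 and 11.94, 12.06, 12.15 and 11.23 in replicate 2. Among the 5, Hsd3b6 was well above background in 4 of 16 channels, Hsd3b1 in 9, Star in 11, and Cyp11a1 and Cyp17a1 in all. The medians of this list therefore rest in part on background signal. The median ratio of 6 mast cell markers was -0.11 to 0.12 on replicate 1 and 0.60 to 1.11 on replicate 2, so KO was not lower throughout on replicate 1. At 24 h the summed log2 level of neutrophil markers was 15.88 and 14.49 in WT and 15.20 and 15.99 in KO, lower in KO on replicate 1 and higher on replicate 2. The median ratio of these 7 genes was -0.087 and -0.099. Only 2 of the 7 were well above background there, or 3 in WT replicate 1, so this median is mostly of background signal. Among them S100a8 had 15.85 and 14.40 in WT and 15.16 and 15.97 in KO. Among genes of hyaluronan handling, Cemip (a hyaluronan-degrading protein) and Adamts1 (a protease that cuts versican), which were singled out after their values were seen, had the split of Tnfaip6. Their ratios were -1.76 and -1.64 on replicate 1 and 0.73 and 0.45 on replicate 2 at 4 h, where the median of all 46 other hyaluronan genes was 0.040 (27 above 0) on replicate 1 and -0.014 (23 above 0) on replicate 2.

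**Figure D2:**
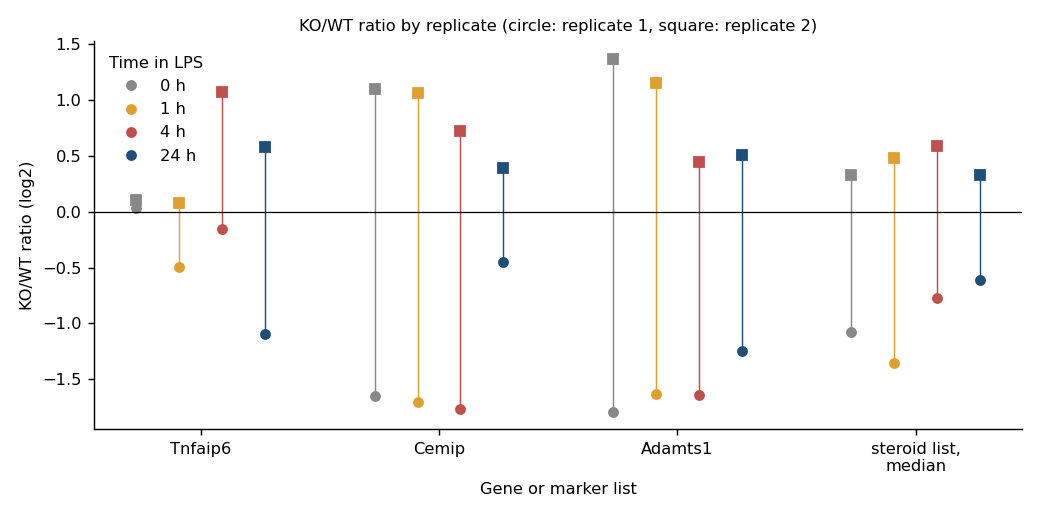
KO/WT ratio (log2, vertical) of Tnfaip6, Cemip, Adamts1 and the median of 5 markers of steroid-producing cells, by time in LPS (colour), circles replicate 1 and squares replicate 2 of the same time. Replicate 1 lay below 0 and replicate 2 above 0 at each LPS time, as for Tnfaip6 at 24 h (-1.10 and 0.58). Replicate number is also dye orientation, and not all 5 markers were well above background in every channel.

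Vcan, the gene of versican, rose moderately at 4 h. In WT its levels were 8.18 and 8.06 untreated, 8.31 and 7.999 at 1 h, 8.98 and 8.52 at 4 h, then 8.14 and 8.09 at 24 h. In KO they were 8.25 and 7.96, then 7.99 and 7.88, 9.02 and 8.78, and 8.42 and 8.31. The 4 h arrays lay above all others of their genotype. Against untreated, Vcan was 1.54-fold higher in WT (log2 difference 0.63, standard error 0.15, adjusted p = 0.00513) and 1.74-fold higher in KO (0.80, standard error 0.15, adjusted p = 0.000825). Both differences lost their call with normalization within arrays only (0.17 and 0.34), and that in WT without replicate 1 of the 4 h arrays (0.40). From 4 to 24 h Vcan fell by 0.64 in WT (adjusted p = 0.00564) and by 0.54 in KO (adjusted p = 0.0156). The call was lost without replicate 1 of the 4 h arrays (-0.41 in WT and -0.41 in KO), without replicate 2 of the 24 h arrays (-0.61 and -0.48), with normalization within arrays only (-0.18 and -0.053) and, in KO, without replicate 1 of the 24 h arrays (-0.59).

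The KO/WT ratios of Vcan were 0.07 and -0.11 untreated, -0.32 and -0.12 at 1 h, 0.05 and 0.26 at 4 h, then 0.28 and 0.22 at 24 h. Its second probe, of nearly the same brightness, was higher in KO at 24 h by 0.79 and 0.77 (7.81 and 7.82 in WT, 8.60 and 8.59 in KO). The mean of that probe was 0.78 (standard error 0.15, adjusted p = 0.293 over all probes), against 0.25 (standard error 0.10) for the main probe. The third probe was well above background in no channel.

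**Figure D3:**
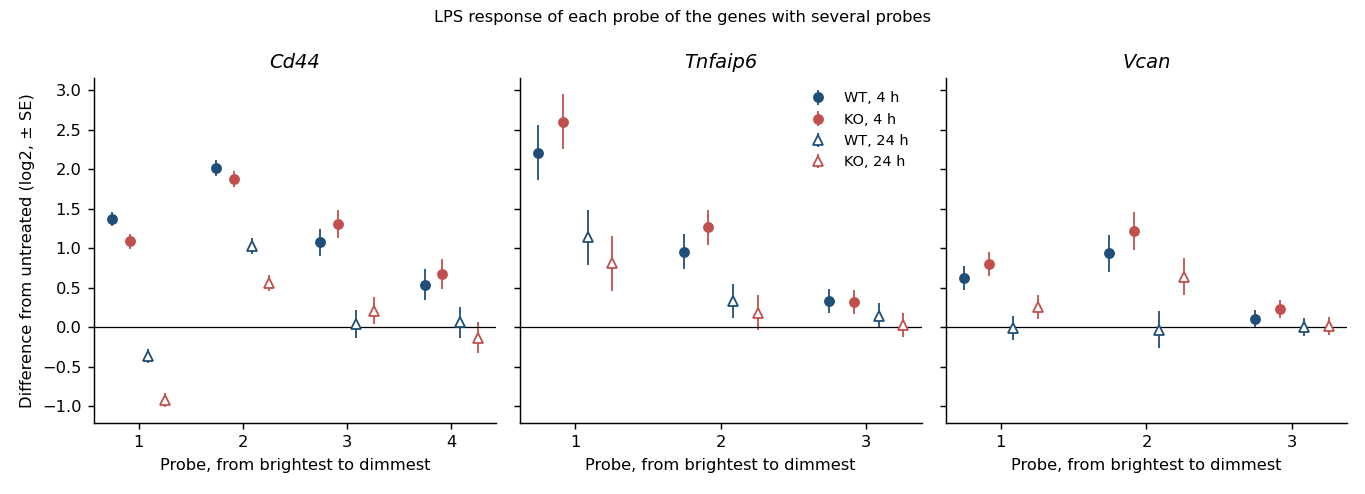
Difference from untreated (log2, vertical) for each probe of Cd44, Tnfaip6 and Vcan, ordered from brightest to dimmest, at 4 h (filled circles) and 24 h (open triangles), WT blue and KO red, bars ± 1 standard error. At 24 h the brightest Cd44 probe lay below 0 (-0.36 and -0.92) and the second above it (1.03 and 0.56), and the dimmer probes of Tnfaip6 and the dimmest of Vcan were well above background in few or no channels.

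The counts of the 8 genes that passed in LPS include Has1, and are given for each genotype without a comparison between them. In WT, 1 gene passed upward and 1 downward at 1 h, where 8.55% of the 36927 genes and transcripts tested passed, 4 upward and 2 downward at 4 h (34.8% of all), and 2 upward and 2 downward at 24 h (30.4% of all). In KO the counts were 1 and 1 at 1 h (7.54% of all), 4 and 2 at 4 h (36% of all), and 1 and 1 at 24 h (28.7% of all), or 4 in all at 24 h with the replicate number in the fit, which added Tnfaip6 and Has2 (not well above background in any channel) and called 33.5% of all. From 1 to 4 h, 5 genes rose and 1, Hyal1, fell in WT (29.6% of all passed, the fall of Hyal1 losing its call without any 1 of the 1 h or 4 h arrays) and 5 rose and 0 fell in KO (31.8%). In WT the rise of Tnfaip6 lost its call without replicate 1 of the 4 h arrays (1.10), and that of Vcan without it (0.36), without replicate 2 of the 1 h arrays (0.43) and with normalization within arrays only (0.20). From 4 to 24 h, 0 rose and 4 fell in WT (29.7%) and in KO (30.7%), namely Has1, Cd44, Tnfaip6 and Vcan. The median difference of the 8 genes, Has1 included, at 4 h was 0.26 in WT and 0.33 in KO, where that of all genes tested was -0.00063 and 0.0016. The comparisons with untreated share the untreated channels.

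For KO against WT, 0 of the 8 genes passed in limma untreated (0% of the 36947 tested passed, with 2126 at an unadjusted p under 0.05, Cd44 among them), 0 at 1 h (0% of all, with 2017 at that p, Has1 and Hyal2 among them), 1 at 4 h (0.00812% of all), 0 at 24 h (0.0244% of all, with 1263 at that p, Has1 and Vcan among them) and 1 in the mean over the times (0.563% of all, or 2 of the 8 with the replicate number in the fit, which called 6.01% of all). The gene at 4 h and in the mean was Has1, whose ratio had entered the choice, so nothing is read from these counts. The count at 4 h was 0 without either of its arrays (Has1 ratio 1.83 without replicate 1 and 1.49 without replicate 2), and that of the mean was 0 without replicate 1 of the untreated (0.60) or replicate 2 of the 4 h arrays (0.60). In the difference between the genotypes' LPS responses, 0 of the 8 passed at 1, 4 and 24 h (0% of all at each, with 517, 1073 and 1230 of all genes at an unadjusted p under 0.05 and 2, 1 and 2 of the 8). With the replicate number in the fit, 1 of the 8, Has1, passed at 4 h (0.0352% of all), from which nothing is read either.

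**Figure D4:**
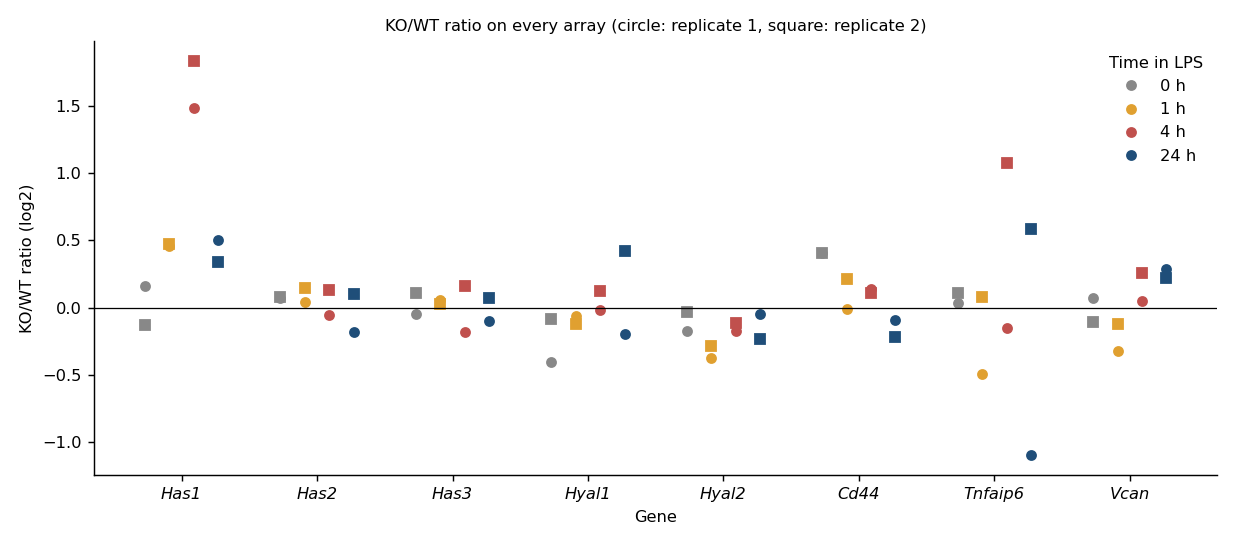
KO/WT ratio (log2, vertical) of each of the 8 genes on every array, coloured by time in LPS, circles replicate 1 and squares replicate 2. Has1 at 4 h (1.49 and 1.83) lay above all other points, Hyal2 lay below 0 on all 8 arrays, and the Tnfaip6 replicates lay on both sides of 0.

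Over the 16 channels, the levels of Has1 had a Pearson r of 0.92 with those of Tnfaip6, 0.89 with Vcan, 0.79 with Cd44 and -0.79 with Hyal1. The channels share arrays and times, so these values only describe the common time course. Has1 was well above background in 12 of the 16 channels, Tnfaip6 in 10 and Hyal1 in 7. The values of r for these genes, here and below, thus rest in part on background signal. Of 20835 other named genes, the levels most like those of Has1 were of Paxip1 (r = 0.987), Gm10228 (0.985) and Gfpt2 (0.985). Those most like Cd44 were Apbb1ip (0.987), Syne2 (0.977) and Jdp2 (0.975), those most like Tnfaip6 were Ppp1r15b (0.976), Inhbb (0.968) and Cacnb3 (0.966), and those most like Vcan were Crabp2 (0.958), Gpa33 (0.944) and Map3k5 (0.942). For Hyal2 they were Itpripl2 (0.956), Necap1 (0.947) and Mapk7 (0.924), and for Hyal1 Ptpn21 (0.957), Aurkaip1 (0.951) and Serac1 (0.939).

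The other genes of hyaluronan handling that passed the threshold in LPS did so in both directions. Of 46 such genes on the array, 21 were well above background in all channels and 17 in none, among them the sperm hyaluronidase gene Spam1, Lyve1 (the receptor of lymphatic endothelium) and Stab2, named after their values were seen. At 4 h, 12 rose and 7 fell in WT and 11 rose and 7 fell in KO, of which 11 rose and 7 fell in both genotypes and 0 moved in opposite directions. The share of the 46 that passed at 4 h was 41.3% in WT, against 34.8% of all genes and transcripts, and 39.1% in KO, against 36%. At 24 h, 9 rose and 6 fell in WT and 7 rose and 6 fell in KO, and at 1 h the counts were 2 and 2 in WT and 4 and 2 in KO. The shares were 32.6% in WT and 28.3% in KO at 24 h, against 30.4% and 28.7% of all, and 8.7% and 13% at 1 h, against 8.55% and 7.54%. With the replicate number in the fit, 7 rather than 4 passed at 1 h in WT, where 12.2% of all did. The median of the 46 at 4 h was 0.04 in WT and 0.02 in KO, close to that of all genes.

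Among the genes of breakdown and uptake, Cemip2, whose product cuts hyaluronan at the cell surface, rose by 3.62 in WT and 3.47 in KO on the log2 scale at 4 h and was still 3.43 and 3.31 above untreated at 24 h. Its log2 levels rose from 8.76 and 8.70 untreated in WT and 9.15 and 9.12 in KO. Gusb and Hexa, genes of lysosomal enzymes that trim the fragments, moved the other way. Gusb (β-glucuronidase) fell by 2.37 in WT and 2.48 in KO at 4 h. Hexa fell by 1.60 in WT and by 1.74 in KO. Stab1, a scavenger receptor of macrophages, fell by 2.52 in WT and 2.60 in KO at 4 h. Macrophage markers were lower at 4 h too, as given above, and their part in these falls was not tested. Habp4, named as a hyaluronan-binding protein, fell by 2.28 in WT and 2.04 in KO at 4 h.

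Among the genes of precursor supply, Gfpt2, an enzyme of the first step towards UDP-N-acetylglucosamine, rose by 2.78 in WT and 3.53 in KO at 4 h. Gfpt1, its paralogue, and Pgm3, a later enzyme of the same route, rose most at 24 h, by 1.57 and 1.68 in WT and by 1.45 and 1.35 in KO. Ugdh, which makes UDP-glucuronate, fell by 1.23 in KO and 1.13 in WT at 4 h. Of the genes of the matrix that TSG-6 helps to build, Ambp (bikunin) rose by 2.96 and 3.16 and Ptx3 (pentraxin 3) by 2.69 and 2.58 in WT and KO at 4 h. Adamts4, a protease that cuts versican and aggrecan, rose by 1.83 and 2.43 at 4 h. Hmmr, a hyaluronan-binding protein of dividing cells, differed by 0.07 and 0.12 at 4 h and rose by 2.30 and 2.08 at 24 h. All of these differences but those of Hmmr at 4 h passed the threshold in limma (adjusted p from 7.56e-10 to 3.06e-05).

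Between the genotypes, 0 of the 46 passed in limma at any time, with 6, 4, 5 and 6 at an unadjusted p under 0.05 at 0, 1, 4 and 24 h. With the replicate number in the fit 1, 0, 2 and 1 passed, Stab1 at 0, 4 and 24 h and Gfpt2 at 4 h, against 1.06%, 0.577%, 0.568% and 0.585% of all genes and transcripts at these times. In the mean over the times 0 passed, with 11 at an unadjusted p under 0.05, and with the replicate number in the fit 5 were higher and 3 lower in KO, 17.4% of the 46 against 6.01% of all. Stab1 was lower in KO, by -0.56 untreated (adjusted p = 0.807, or 0.0398 with that term), by -0.63 at 4 h (adjusted p = 1.00, or 0.0292 with that term) and by -0.88 at 24 h (adjusted p = 0.630, or 0.00506). The median KO/WT ratio of the 8 macrophage markers was -0.32 to 0.064 on the 8 arrays, with 1 to 4 of the 8 above 0. For KO/WT, Lyz2, the locus that drives Cre, passed at 24 h (-1.73), and in the mean over the times Lyz2 (-1.18) and Csf1r (-0.41) were lower and Icam2 (0.34) higher, the median of the 8 being -0.12 there. Their part in the Stab1 ratio was not tested. Gfpt2 was higher in KO at 4 h by 0.95 (standard error 0.19, adjusted p = 0.381, or 0.0116), with levels of 10.51 and 10.34 in KO against 10.00 and 8.95 in WT.

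**Figure D5:**
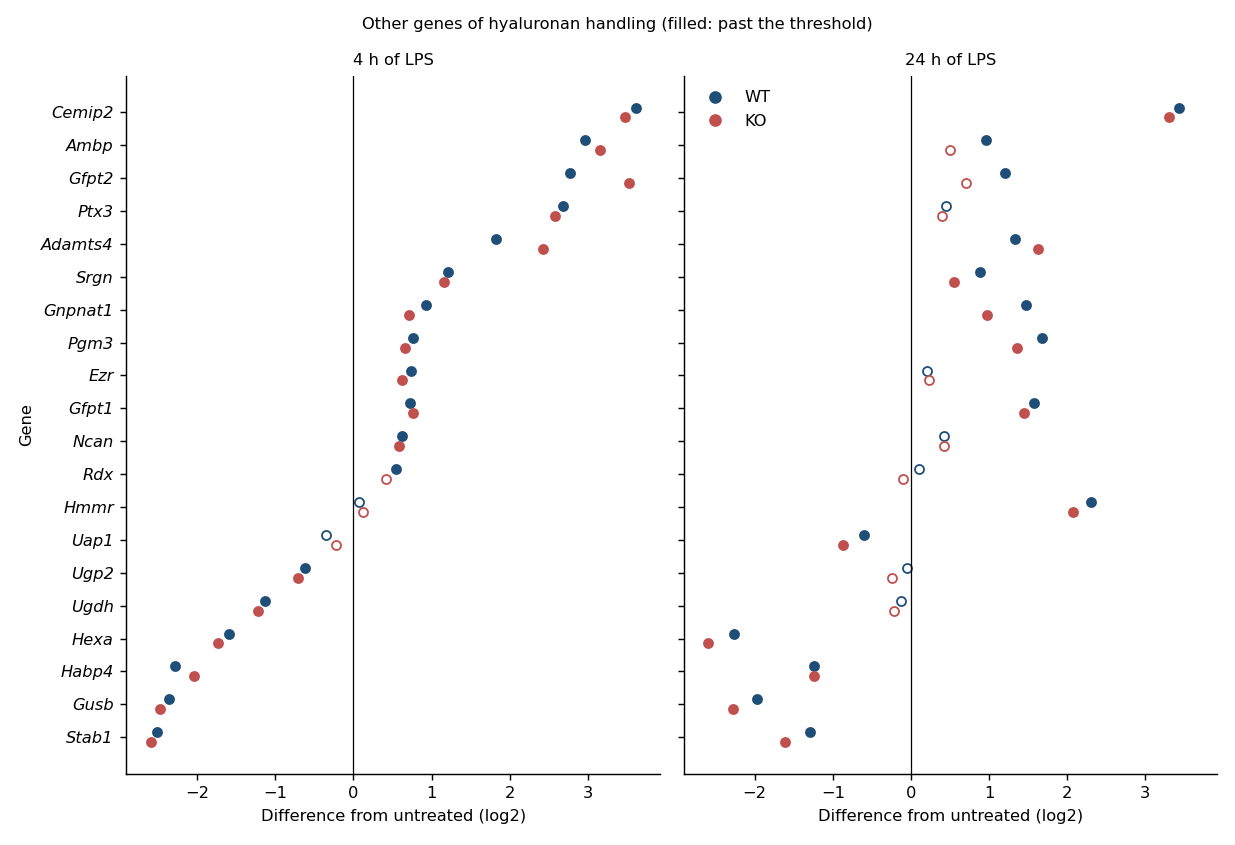
Difference from untreated (log2, horizontal) at 4 h (left) and 24 h (right) for 20 of the 21 other genes of hyaluronan handling that passed the threshold at 4 or 24 h in either genotype, WT blue and KO red, filled where the value passed. At 4 h Cemip2 stood highest in WT (3.62) and Gfpt2 in KO (3.53), with Stab1, Gusb and Habp4 lowest in both.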

How the data were processed

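RNA of KO and WT peritoneal macrophages was measured on 8 Agilent 2-colour arrays of 62976 spots. The authors deposited output of Agilent's Feature Extraction software, with the intensity of each spot in both channels, without normalization between arrays, and per array a log2 ratio of Cy5 to Cy3 after their own normalization, used here as an alternative only. Samples were grouped by their titles, since the growth protocol gives 4 h of LPS for all. The members and gene lists were chosen with earlier results of these data known.

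Mean signals had been planned, but the files hold medians, so median foreground and background intensities were corrected by normexp (offset 50), normalized by loess within arrays and by quantiles between arrays in limma 3.58.1 (R 4.3.3, statmod 1.5.0). Of 55681 gene probes, 27509 were named through RefSeq identifiers. Array and reference differ in genome build, so no probe position is printed. Spots marked as outliers were left out, spots of a probe averaged, and genes with a mean log2 intensity under 6 removed, which left 36947 of 37018 genes and transcripts, all 8 members among them. Log2 KO/WT ratios were fitted with lmFit and eBayes, with 1 coefficient per time and 4 residual degrees of freedom. LPS responses were fitted on all 16 channels by separate-channel analysis (within-spot correlation 0.103, from 5000 genes). The p-values were two-sided, with Benjamini-Hochberg adjustment across everything tested (36947 genes and transcripts for ratios, 36927 for channels) and a threshold of 0.05. The number of arrays limits the precision. The fits were tested on simulated data.

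Untreated and 1 h arrays lay in 1 row of the single slide, 4 and 24 h arrays in the other, so that position and time cannot be told apart in comparisons of 4 or 24 h with untreated or 1 h. Replicate numbers recur at every time and were checked for pairing. The replicates' differences in KO/WT ratio had r from 0.475 to 0.679 across genes over 6 pairs of times, those in WT level 0.339 to 0.565 and those in KO level 0.214 to 0.336, so the number, which is also the dye orientation, was used as a block in an alternative. Genes named are the members and all their probes, the 4 largest changes each way among the other hyaluronan genes that passed, Furin, Lyz2, Tnf, Il6, cell type markers, and the 3 genes most like each detected member. Cemip, Adamts1, Spam1, Lyve1 and Stab2 lie outside this rule. The marker lists covered macrophages, mesothelial cells and fibroblasts, steroid-producing cells, neutrophils, mast cells, B cells, T and NK cells and dendritic cells. Promoter windows came from RefSeq GRCm38.p6. The values of 1 other hyaluronan gene, which stays in the counts, are not reported here.

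The alternatives were the software's processed signals, no background correction, Aquantile or no normalization between arrays, no filter or a filter on signal well above background, the mean of all probes, the replicate block, each array left out, the deposited ratios, one genotype's channels alone, and the methods' t-test.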

Additional observations from a re-analysis of the deposited data

Results flagged for a closer look

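The KO/WT ratio of Cd44 was above 0 on both arrays at 4 h (0.14 and 0.11) and below 0 on both at 24 h (-0.09 and -0.22), a difference of -0.28 between the times that was not tested. The ratio of Vcan was below 0 on both arrays at 1 h (-0.32 and -0.12) and above 0 on both at 4 h (0.05 and 0.26) and at 24 h (0.28 and 0.22). These differences of 0.38 and 0.47 from the ratio at 1 h were not tested either.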

How the results depend on the processing

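The ratio of Has1, which entered the choice of genes, is followed here only as a description. At 4 h it fell short of the threshold with the software's processed signals (1.72, leaving 0 of the 8 genes called) and in the methods' t-test (1.66 and 0), and ranged from 1.49 to 1.83 with 1 array left out (0 to 1 genes called). The mean ratio of Has1 ranged from 0.60 to 0.68 with 1 array left out (0 to 1 called), and 2 genes were called with the replicate block. The fitted difference of the Has1 responses at 4 h, which rests on untreated signals not well above background, was 1.64 with the replicate block (1 gene called, with 0.0352% of all) and ranged from 1.47 to 1.82 with 1 array left out. Counts of genes called for LPS in WT fell at 1 h to 1 with one genotype's channels alone (1 to 2 with 1 array left out), and at 24 h to 2 with the processed signals and 2 with the mean of all probes (2 to 4). With 1 array left out they were 3 to 6 from 1 to 4 h and 2 to 4 from 4 to 24 h in WT, 1 to 2 at 1 h in KO, and 2 to 3 at 24 h in KO, where the replicate block gave 4. Cd44 in WT at 24 h turned from -0.36 to 0.19 with the mean of all probes, and in KO from -0.92 to -0.07, since its probes differ in direction. The other causes were not tested. Among 386 values of named genes under settings that keep all arrays, 368 stayed on their side of the threshold and kept their direction. Of 352 with 1 array left out, 313 did, 39 lost their call and 0 turned. With no normalization between arrays the median of all genes moved by -0.16 from 1 to 4 h in both genotypes, and with the processed signals by -0.12 in WT and -0.11 in KO at 24 h. The methods' t-test called 0 genes after adjustment at every time, with 1134 to 1756 at an unadjusted p under 0.05. The replicate block raised the genes and transcripts called for KO/WT from 0, 0, 3 and 9 to 393, 213, 210 and 216 at 0, 1, 4 and 24 h and from 208 to 2219 in the mean, and it changed no call of the 8 genes beyond those given here and in the report. Has2, Has3, Hyal1 at 4 h, untreated Has1 and Tnfaip6 and the dimmest Cd44 probe when untreated were not well above background, so that fitted differences and ratios involving them are not measured folds. The same holds for Tnfaip6 at 1 h and Hyal1 at 1 and 24 h, which were well above background in only part of the channels.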
